A study of Homo sapiens with 8 samples.

Results

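Expression of 40 genes of the hypoxia response and of glycolysis was examined in 143B cells, an established human osteosarcoma line. The genes were given as a list and fall into 3 roles: 6 HIF factors and oxygen-sensing genes, 23 genes of glucose uptake and glycolysis, and 11 other targets of HIF. All 40 were among the 54174 gene symbols of the deposited table. Of these 40, 37 had a value in every library and a mean log2 value of at least 1, and so were among the 9016 genes tested. The other 3 members, EGLN3, CA9 and ANKRD37, are described by their values.

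The control group was 4 libraries of cells given a vector plasmid (genotype control). The other group was 4 libraries of cells given a plasmid labelled NELL1KO (genotype NELL1 knockout). RNA was taken 48 h after transient transfection in all 8 cases, the cells grew in serum-containing medium, and the labels mention no low-oxygen treatment. The labels name no selection, sorting or clone of transfected cells, so the share of cells that carried the edit is not known here. NELL1 itself was near the bottom of the measured range, at -6.97, -6.97, -4.53 and -5.00 in controls 1 to 4. It was -4.82, -5.87 and -6.96 in knockout libraries 1, 2 and 4, with a blank in knockout library 3, so its transcript did not set the groups apart.

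HIF is a pair of proteins, an oxygen-sensitive alpha subunit (HIF1A or EPAS1, also called HIF-2 alpha) and the stable partner ARNT. When oxygen is present, the prolyl hydroxylases of the EGLN family mark the alpha subunit and VHL directs its destruction, so HIF activity is set largely at the protein level. HIF raises glucose transporters, nearly every enzyme that turns glucose into lactate, and genes for vessel growth and mitochondrial removal. Tumour cells, osteosarcoma cells among them, often run glycolysis in ample oxygen as well.

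Each value below is the deposited log2 value of a gene in a library, after the authors' quantile normalization, which gives every library the same distribution. A difference of 1 is a doubling, and a fall means a fall relative to the rest of the transcriptome. The unit before the logarithm is not given in the sources used here, so levels are not compared between genes. In bulk RNA, fewer cells of a type and less RNA per cell cannot be told apart.

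The libraries of a group were not equally alike. The SD across the 9016 genes of the difference between libraries was 0.12 for knockout libraries 1 and 2, 0.13 for knockout libraries 3 and 4, and 0.46 to 0.50 between those pairs. Among the controls it was 0.10 for libraries 1 and 2 and 0.19 for libraries 3 and 4, while control 4 was nearer to controls 2 and 1, at 0.13 and 0.15. Controls 3 and 4 are thus not a close pair. Because the knockouts form close pairs, replicates 1-2 and 3-4 are also given apart, from a limma fit with a mean for each of 4 library pairs, whose spread comes only from libraries of the same pair. The labels name no batch behind the pairs. Of the marker lists, the summed log2 level of the mesenchymal and osteoblast-lineage genes (8 of 9 with a value, SP7 blank) was 10.84 to 10.92 in controls and 10.30 to 10.75 in knockouts. Its members differed: VIM was at 10.79 to 10.87 and 10.19 to 10.66, SPARC at 5.23 to 5.94 and 6.06 to 6.15. The epithelial list (5 of 5, CDH1 blank or under -7) was at 9.06 to 9.18 and 9.26 to 9.46, with KRT8 at 6.52 to 6.63 and 6.84 to 7.10 but EPCAM at 2.38 to 2.75 and 1.83 to 2.76. The adipocyte list (2 of 3, ADIPOQ blank) was at -1.60 to -0.33 and -0.32 to 2.47, and the skeletal muscle list (3 of 4, CKM blank) at -0.28 to 0.06 and 0.31 to 0.55. FABP4 carried the former, at -0.40, -0.27, 2.39 and 2.46 in knockouts 1 to 4, with PLIN1 at -6.78 to -4.62 or blank. MYH3 carried the latter, at -0.53 to -0.02 in controls and 0.14 to 0.48 in knockouts. The endothelial list (4 of 4, CDH5 and VWF blank or at most -4.74) was at -3.45 to -1.63 and -2.83 to -0.61. The blood list (2 of 5, PTPRC, CD74 and HBB blank) was at 5.72 to 5.90 and 5.54 to 5.88, almost all of it CD68. The part of these marker shifts in the results was not tested.

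Control library 3 stood apart from the other controls in hypoxia genes. It was the lowest of the 4 controls for 25 of the 37 tested members, against 40% of all genes tested, and the highest for 8, against 37.9% of all genes. Its median difference from the mean of the other controls was -0.22 over the members and -0.38 over the 9 tested HIF targets, against -0.0039 over all genes. BNIP3, a mitophagy receptor, shows the pattern, at 6.84, 6.82, 5.69 and 6.56 in controls 1 to 4. PGK1, the phosphoglycerate kinase, was at 7.80, 7.79, 7.04 and 7.52. With control 4 left out, control 3 differed from controls 1 and 2 in 23 of 37 members, 20 lower and 3 higher, the latter EPAS1, PFKL and PFKP (limma adjusted p under 0.05). Of all genes 31.9% were called in that comparison, 14.4% lower and 17.5% higher. The lone library is assumed to vary like the others there. The same comparison for control 4, without control 3, called 0 members (15 at an unadjusted p under 0.05), against 0.333% of all genes (0.311% higher, 0.0222% lower). With both in place, controls 3 and 4 together gave 0 calls among the members against controls 1 and 2 (22 at an unadjusted p under 0.05), and 0.643% of all genes were called (0.599% higher, 0.0444% lower). Members whose call changed in replicates 3-4 without control 3 or control 4 are given below with those values.

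**Figure D1:**
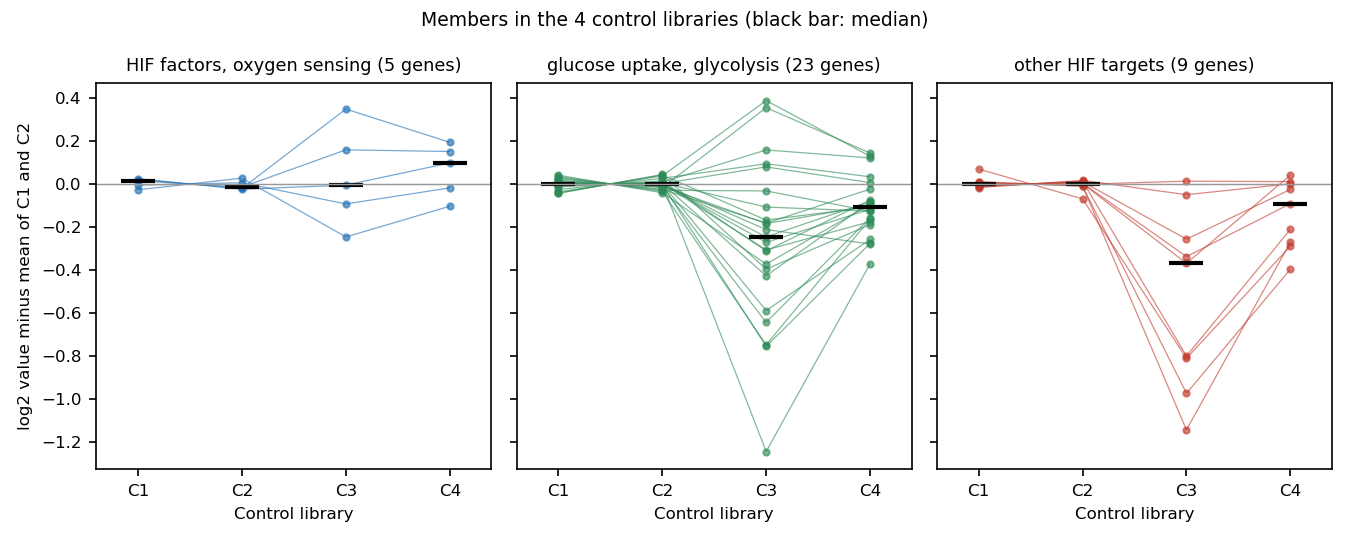
The log2 value of each tested member in the 4 control libraries (C1 to C4), minus its mean in controls 1 and 2, by role; a line joins the values of 1 gene and the black bars are medians. Most glycolysis genes and HIF targets dip in C3, while the pair of near-level lines among the HIF targets is BHLHE40 and VEGFA.

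Over all 8 libraries, 9 of the 37 tested members differed between knockout and control, 7 lower and 2 higher (limma adjusted p under 0.05). The background was 13.1% of all genes called, 6.10% lower and 7.02% higher. The members that fell were SLC2A3, PFKFB4, ALDOC, NDRG1, VEGFA, BHLHE40 and MXI1, and those that rose were GAPDH and LDHB. The median difference was -0.11 over the members and 0.0072 over all genes. By role, 0 of 5 HIF factors and oxygen-sensing genes (1 at an unadjusted p under 0.05), 5 of 23 genes of glucose uptake and glycolysis and 4 of 9 other HIF targets were called. Knockout and control values did not overlap for 8 members, 6 lower and 2 higher, against 22.9% of all genes (10.4% lower, 12.5% higher).

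These calls were sensitive to single libraries. Only SLC2A3 remained called without control 1, without control 2 or without control 4, where 4.92%, 4.78% and 4.34% of all genes were called. By contrast, 13 members were called without control 3 (2 higher and 11 lower, against 15.0% of all genes, 8.21% higher and 6.80% lower). Those 13 hold 8 of the 9 genes above, VEGFA being lost at a limma adjusted p of 0.0563, and add SLC2A1, PGK1, BNIP3, BNIP3L and KDM3A. Leaving out knockout library 2, 3 or 4 left 5 members called, against 9.49%, 7.94% and 10.1% of all genes. When knockouts 1 and 2 were averaged, and likewise 3 and 4, limma called 0 members (11 at an unadjusted p under 0.05), against 1.20% of all genes (0.488% higher, 0.710% lower). With the replicate number as a block 8 members were called, all lower, against 10.2% of all genes (4.57% lower, 5.68% higher). PFKFB4, GAPDH and LDHB then missed the threshold (limma adjusted p = 0.0650, 0.0686 and 0.0729), and ARNT and DDIT4 passed it (0.0493 and 0.0387). A term for the replicate sets in place of the block kept all 9 called and added ARNT, DDIT4 and SLC16A3. That made 10 lower and 2 higher, against 25.2% of all genes.

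**Figure D2:**
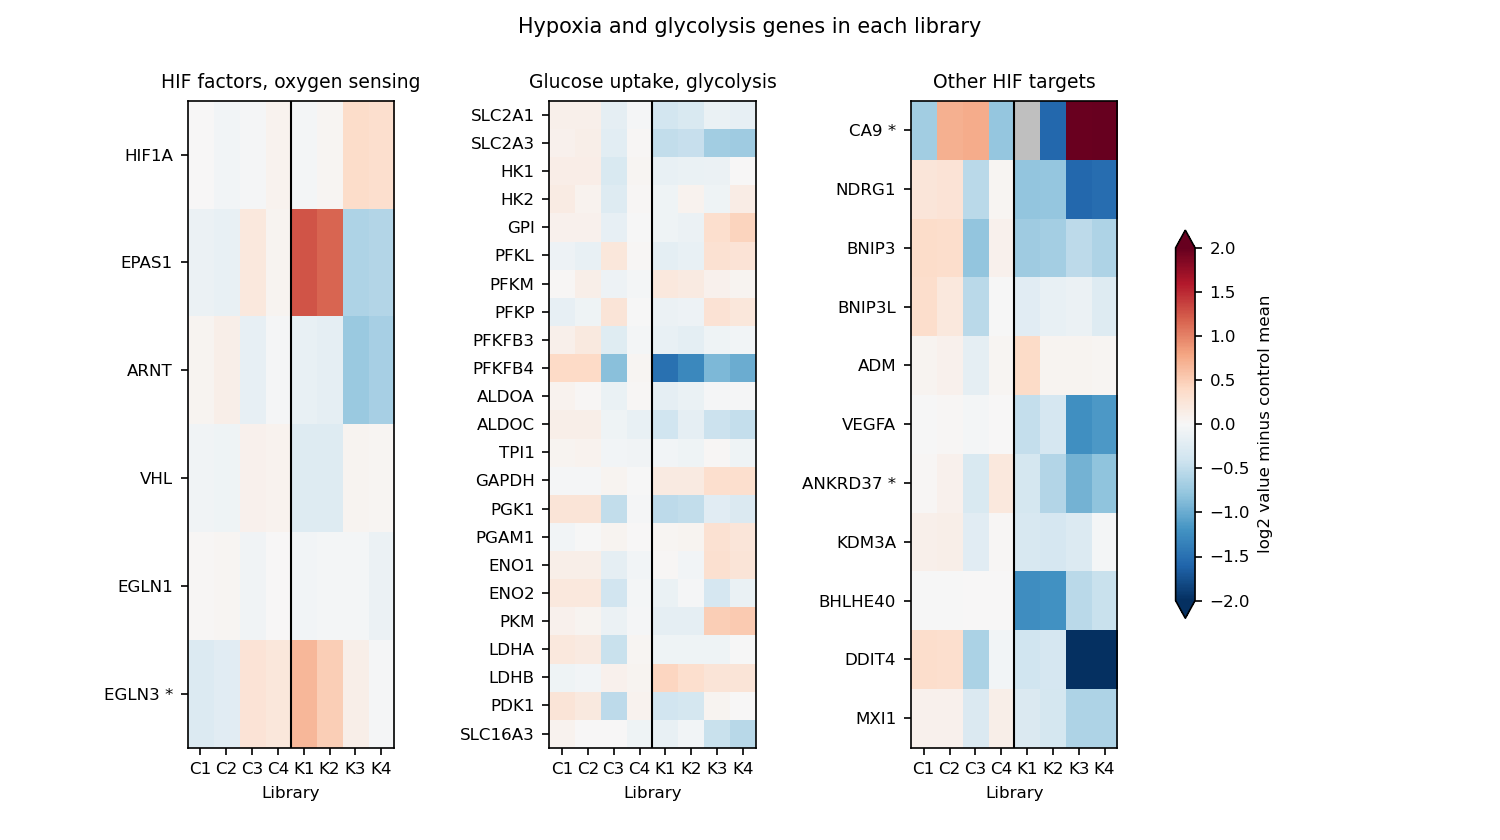
The log2 value of each of the 40 members in control (C1 to C4) and knockout (K1 to K4) libraries, minus the gene's control mean, in 3 role panels; grey is a blank, an asterisk marks the 3 members not tested, and values beyond 2 either way have the end colour. EPAS1 is high in K1 and K2 and low in K3 and K4, NDRG1 and VEGFA are low in all 4 knockouts, and the glycolytic enzymes lie mostly near 0.

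Among the HIF factors the alpha subunits behaved differently from each other. HIF1A was at 5.36, 5.31, 5.33 and 5.44 in controls 1 to 4 and at 5.32, 5.40, 5.73 and 5.70 in knockouts 1 to 4. Knockout libraries 1 and 2 lay within the control range and 3 and 4 above it. The overall difference of 0.18 ± 0.10 (SE) did not pass the test (limma adjusted p = 0.297). Within replicates 3-4 HIF1A rose by 0.33 ± 0.07 (SE; limma adjusted p = 0.00350), and the change differed between the replicate sets (interaction 0.31, limma adjusted p = 0.0274).

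EPAS1 was at 2.18, 2.14, 2.51 and 2.35 in controls and at 3.55, 3.47, 1.68 and 1.71 in knockouts. All 4 knockout values lay outside the control range, 2 above it and 2 below it, so their mean of 2.60 ± 1.05 (SD, n = 4) describes no library. The change was 1.35 ± 0.07 (SE) in replicates 1-2 (limma adjusted p = 6.403e-06) and -0.74 ± 0.07 (SE) in replicates 3-4 (limma adjusted p = 9.131e-05). The difference between those changes, -2.09 ± 0.10 (SE; limma adjusted p = 1.222e-05), had the largest absolute size among the 37 members. EPAS1 and HIF1A thus ranked the knockout pairs in opposite order.

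ARNT, the shared partner, was at 3.93, 3.99, 3.72 and 3.86 in controls and at 3.73, 3.70, 3.13 and 3.21 in knockouts. It fell by 0.25 in replicates 1-2 and by 0.62 in replicates 3-4 (limma adjusted p = 0.0176 and 1.897e-04), and the overall difference of -0.43 did not pass (limma adjusted p = 0.0927). The ARNT change differed between the sets (interaction -0.37, limma adjusted p = 0.0166). VHL, the ubiquitin ligase component, fell by 0.18 in replicates 1-2 (limma adjusted p = 0.0279) and was at -0.03 in replicates 3-4. EGLN1, the main oxygen-sensing hydroxylase, held between 2.99 and 3.13 in all 8 libraries. EGLN3, a hydroxylase that HIF itself induces, was too low to test, at -0.74, -0.70, -0.20 and -0.25 in controls and 0.20, 0.02, -0.36 and -0.49 in knockouts. Its groups overlapped (difference 0.31, p = 0.2 in a two-sided exact permutation test).

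SLC2A1 (GLUT1) and SLC2A3 (GLUT3) are glucose transporters, and these RNA data do not measure glucose uptake. SLC2A3 was at 4.56, 4.59, 4.26 and 4.50 in controls and 3.98, 4.02, 3.78 and 3.77 in knockouts, with every knockout below every control. It fell by 0.59 ± 0.10 (SE, 1.51-fold; limma adjusted p = 0.00864), by 0.57 in replicates 1-2 and by 0.61 in replicates 3-4. Of the 37 members it alone passed an adjusted p of 0.01, against 3.02% of all genes. Its near-identical paralogue SLC2A14 had a value in 5 of 8 libraries, between -7.65 and -6.44, and how reads shared by the pair were assigned is not given. SLC2A1 averaged 5.76 ± 0.13 in controls and 5.52 ± 0.11 in knockouts (SD, n = 4 each; limma adjusted p = 0.110). It fell by 0.43 in replicates 1-2 (limma adjusted p = 0.00122), and its difference was -0.05 in replicates 3-4 (interaction limma adjusted p = 0.0139).

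PFKFB4 makes and breaks down fructose 2,6-bisphosphate, the activator of phosphofructokinase. It was at 3.65, 3.65, 2.41 and 3.28 in controls and 1.76, 1.95, 2.35 and 2.26 in knockouts. The groups did not overlap, but control 3 lay only just above the highest knockout. The fall was 1.17 ± 0.27 (SE, 2.24-fold; limma adjusted p = 0.0291) and 1.45 without control 3. The change differed between the replicate sets (interaction 1.26, limma adjusted p = 0.0114). The fall was 1.80 in replicates 1-2 (limma adjusted p = 2.983e-04), and the difference was -0.54 in replicates 3-4 (limma adjusted p = 0.0751). That last value was -0.97 against control 4 alone and -0.10 against control 3 alone (limma adjusted p = 2.086e-04 and 0.395). Its relative PFKFB3 fell by 0.32 in replicates 1-2 (limma adjusted p = 0.00924) and was at 0.08 in replicates 3-4 (interaction limma adjusted p = 0.0197).

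ALDOC, a fructose-bisphosphate aldolase, was at 3.17, 3.16, 2.95 and 2.89 in controls and 2.64, 2.87, 2.61 and 2.57 in knockouts. It fell by 0.37 ± 0.10 (SE, 1.29-fold; limma adjusted p = 0.0402), with -0.41 and -0.33 in the replicate sets. The lowest control lay just above the highest knockout. The aldolase ALDOA was at 8.62 ± 0.09 in controls and 8.53 ± 0.08 in knockouts (SD, n = 4 each; limma adjusted p = 0.441). ALDOA fell by 0.21 in replicates 1-2 (limma adjusted p = 0.0327) and was at 0.03 in replicates 3-4.

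The rises were in the middle and at the end of the pathway. GAPDH, which oxidizes glyceraldehyde 3-phosphate, was at 11.04, 11.05, 11.12 and 11.05 in controls and 11.25, 11.25, 11.41 and 11.41 in knockouts. All knockouts were higher, by 0.26 ± 0.07 (SE, 1.20-fold; limma adjusted p = 0.0381). LDHB, the lactate dehydrogenase subunit usually tied to lactate use, was at 8.56, 8.58, 8.73 and 8.69 in controls and 9.06, 8.97, 8.89 and 8.89 in knockouts. It rose by 0.31 ± 0.07 (SE, 1.24-fold; limma adjusted p = 0.0259), and the change differed between the replicate sets (interaction -0.27, limma adjusted p = 0.0366). It also rose within both replicate sets, by 0.45 and 0.18 (limma adjusted p = 5.604e-04 and 0.0396). The latter was not called without control 4 (LDHB 0.16, limma adjusted p = 0.0723). Its partner LDHA was at 7.82 ± 0.30 in controls and 7.75 ± 0.04 in knockouts (SD, n = 4 each; limma adjusted p = 0.791). Neither rise was called with the replicate block, and both were with the term for the replicate sets, as given above. GAPDH was not called with no filter on low values (limma adjusted p = 0.0620). Nor were the falls of VEGFA, ALDOC and MXI1 called with no filter (limma adjusted p = 0.0554, 0.0646 and 0.0620). GAPDH, LDHA, LDHB, PGK1, PGAM1, ENO1 and PKM have processed pseudogenes, and how reads shared with those were assigned is not given.

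Several enzymes passed the test in 1 replicate set, or in both sets with opposite signs. PKM, the pyruvate kinase, was at 9.10, 9.08, 8.90 and 8.99 in controls and 8.83, 8.84, 9.51 and 9.54 in knockouts. Knockouts 1 and 2 lay below every control and knockouts 3 and 4 above every control. The change was -0.25 in replicates 1-2 and 0.58 in replicates 3-4 (limma adjusted p = 0.00895 and 1.290e-04), and the interaction was 0.83 ± 0.09 (SE; limma adjusted p = 2.217e-04). GPI and ENO1, which isomerize glucose 6-phosphate and make phosphoenolpyruvate, rose in replicates 3-4 by 0.47 and 0.41 (limma adjusted p = 8.914e-04 and 0.00140). In replicates 1-2 they were at -0.18 and -0.14 without passing the test. The change differed between the sets for both (interaction limma adjusted p = 0.00142 and 0.00255). PGAM1, the phosphoglycerate mutase, rose by 0.24 in replicates 3-4 (limma adjusted p = 0.0107), and its interaction did not pass (limma adjusted p = 0.155).

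PGK1 was at 7.01, 7.05, 7.31 and 7.26 in knockouts, against 7.80, 7.79, 7.04 and 7.52 in controls. Control 3 lay among the knockouts. PGK1 fell by 0.76 in replicates 1-2 (limma adjusted p = 0.00144), and the change was 0.00 in replicates 3-4 (interaction 0.77, limma adjusted p = 0.00917). That last value hides a split: the change in replicates 3-4 was -0.24 against control 4 alone and 0.24 against control 3 alone (limma adjusted p = 0.0159 and 0.0154). PDK1, which turns off pyruvate dehydrogenase, was at 2.12, 2.05, 1.33 and 1.92 in controls and 1.47, 1.51, 1.90 and 1.87 in knockouts. It fell by 0.59 in replicates 1-2 (limma adjusted p = 0.0107), and its difference was 0.26 in replicates 3-4 (limma adjusted p = 0.193; interaction 0.85, limma adjusted p = 0.0122). The latter difference was -0.03 against control 4 alone and 0.55 against control 3 alone (limma adjusted p = 0.689 and 6.120e-04). SLC16A3, the lactate exporter MCT4, fell by 0.46 in replicates 3-4 (limma adjusted p = 9.074e-04) and was at -0.14 in replicates 1-2 (interaction limma adjusted p = 0.0305, and 0.0507 without control 3).

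The remaining enzymes were HK1, HK2, PFKL, PFKM, PFKP, TPI1 and ENO2, the hexokinases, phosphofructokinase subunits, triose phosphate isomerase and an enolase. None of these 7 was called over all 8 libraries or in either replicate set, by limma. Their overall differences ran from -0.16 for ENO2 to 0.13 for PFKM. HK1 and ENO2 were lower in replicates 1-2 by 0.26 and 0.29, near the threshold (limma adjusted p = 0.0604 and 0.0601). LDHA, given above, was at -0.29 there (limma adjusted p = 0.0950). The spread used for replicates 1-2 also takes in the gap between controls 3 and 4, so these nulls depend on both of those controls. Without control 3, 26 members were called in replicates 1-2, and the same number without control 4 (57.3% of all genes in each case). Without control 3, HK1, ENO2, LDHA and GPI were among those called lower there. In replicates 3-4, however, PFKL and PFKP were called higher without control 3, by 0.27 and 0.26 (limma adjusted p = 0.00882 and 0.0136). HK1 was called higher there without control 4, by 0.25 (limma adjusted p = 0.0213).

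**Figure D3:**
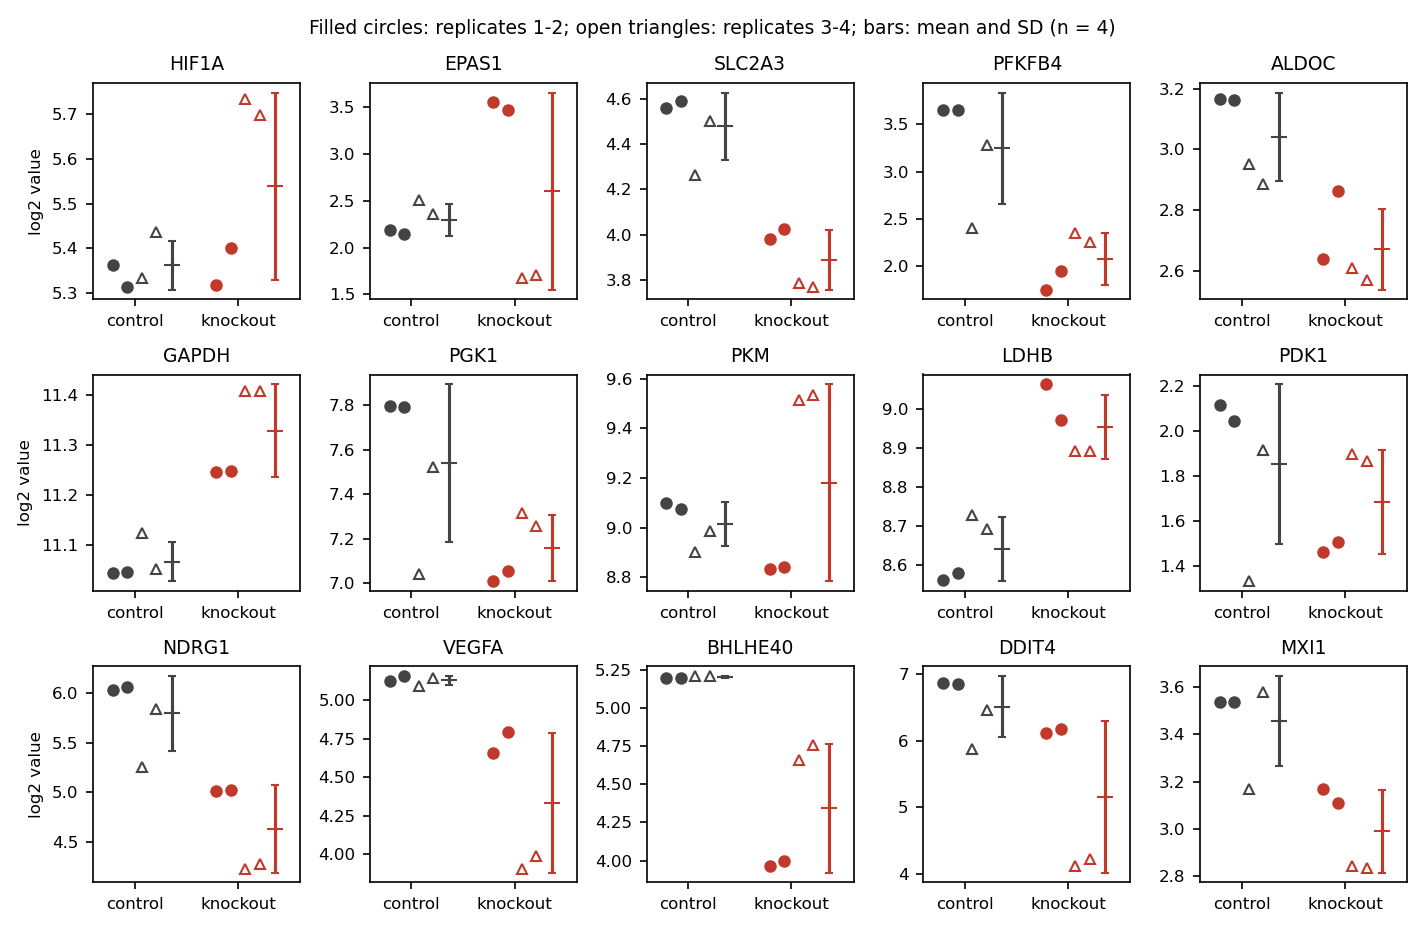
The log2 value in each library of the 15 members described in full, controls in grey and knockouts in red, with circles for replicates 1-2, triangles for replicates 3-4 and bars for the mean and SD (n = 4). In EPAS1 and PKM the knockout circles and triangles lie on opposite sides of the controls, in SLC2A3 and NDRG1 all lie below them, and the lowest control of PGK1 and PDK1 is control 3.

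Among the other HIF targets, 4 of 9 fell and 0 rose over all 8 libraries. NDRG1, a stress-responsive growth and differentiation gene, was at 6.04, 6.06, 5.25 and 5.84 in controls and 5.01, 5.02, 4.22 and 4.27 in knockouts. Every knockout was below every control, and the fall was 1.17 ± 0.25 (SE, 2.25-fold; limma adjusted p = 0.0199). It was 1.04 in replicates 1-2 and 1.30 in replicates 3-4, a difference that did not pass the test (limma adjusted p = 0.348). Without control 3 it did pass (interaction -0.56, limma adjusted p = 0.00148).

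VEGFA, the main growth factor of blood vessels, held at 5.13, 5.16, 5.09 and 5.14 in controls. It was at 4.66, 4.79, 3.91 and 3.99 in knockouts, all below the controls. The fall was 0.79 ± 0.20 (SE, 1.73-fold; limma adjusted p = 0.0336) and was larger in replicates 3-4 (1.17, limma adjusted p = 7.913e-06) than in replicates 1-2 (0.42, limma adjusted p = 0.00142). The interaction was -0.76 (limma adjusted p = 5.738e-04). BHLHE40, a transcriptional repressor of the circadian and hypoxia responses, was at 5.20, 5.20, 5.21 and 5.21 in controls and 3.96, 3.99, 4.66 and 4.76 in knockouts. It fell by 0.86 ± 0.18 (SE, 1.82-fold; limma adjusted p = 0.0204). The order of the sets was the reverse of that for VEGFA, with a fall of 1.22 in replicates 1-2 and 0.50 in replicates 3-4 (interaction 0.72, limma adjusted p = 4.216e-04). Control 3 differed from controls 1 and 2 by -0.05 in VEGFA and 0.01 in BHLHE40, with control 4 left out (limma adjusted p = 0.643 and 0.893).

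DDIT4, an inhibitor of mTORC1 signalling, was at 6.86, 6.84, 5.88 and 6.46 in controls and 6.12, 6.17, 4.13 and 4.22 in knockouts. The groups overlapped because control 3 lay below knockouts 1 and 2. The overall difference of -1.35 ± 0.51 (SE) did not pass (limma adjusted p = 0.118). The fall was 0.71 in replicates 1-2 and 1.99 in replicates 3-4 (limma adjusted p = 0.00470 and 2.609e-05; interaction limma adjusted p = 0.00170), the latter a 3.98-fold change. MXI1, a MYC antagonist, was at 3.54, 3.54, 3.17 and 3.58 in controls and 3.17, 3.11, 2.84 and 2.83 in knockouts, with control 3 just under the highest knockout. It fell by 0.47 ± 0.12 (SE, 1.38-fold; limma adjusted p = 0.0382).

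BNIP3 and its relative BNIP3L fell by 1.05 and 0.46 in replicates 1-2 (limma adjusted p = 0.00400 and 0.0264). Their differences were -0.22 and 0.09 in replicates 3-4. The BNIP3 change there was -0.66 against control 4 alone and 0.21 against control 3 alone (limma adjusted p = 2.705e-04 and 0.0307). KDM3A, a histone demethylase, fell by 0.44 in replicates 1-2 (limma adjusted p = 0.00592) and was at -0.05 in replicates 3-4. ADM, the vessel-dilating peptide adrenomedullin, was at 4.59 ± 0.12 in controls and 4.73 ± 0.17 in knockouts (SD, n = 4 each; limma adjusted p = 0.408).

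ANKRD37, an ankyrin-repeat gene, was below the level for testing, at 1.26, 1.32, 0.95 and 1.45 in controls and 0.89, 0.67, 0.30 and 0.43 in knockouts. All knockouts lay below the controls (difference -0.67, p = 0.0286 in a two-sided exact permutation test, the lowest value possible with 4 against 4). CA9, the carbonic anhydrase used as a hypoxia marker, was near the bottom of the range in both groups. It was at -3.79, -2.39, -2.36 and -3.87 in controls, blank in knockout 1, and -4.67, -1.12 and -1.10 in knockouts 2 to 4. The groups overlapped (p = 0.429 in a two-sided exact permutation test, 35 splits).

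The change was next set side by side for the 2 replicate sets, which share no library. In replicates 1-2, 22 of 37 members were called, 19 lower and 3 higher, against 47.9% of all genes (21.3% lower, 26.6% higher). In replicates 3-4, 17 of 37 were called, 10 lower and 7 higher, against 44.1% of all genes (22.8% lower, 21.3% higher). The share called was near the background in replicates 3-4, and the median member changed by 0.02 there and by -0.25 in replicates 1-2. The medians over all genes were -0.0021 and 0.03. Of the 23 genes of glucose uptake and glycolysis, 9 fell and 2 rose in replicates 1-2, whereas 3 fell and 6 rose in replicates 3-4. Of the 9 tested HIF targets, 8 fell in replicates 1-2 and 5 in replicates 3-4, and 0 rose in either.

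Members called lower in both sets were ARNT, SLC2A3, ALDOC, NDRG1, VEGFA, BHLHE40, DDIT4 and MXI1, which makes 8 of 37 against 6.80% of all genes. GAPDH and LDHB were called higher in both (background 8.52%). EPAS1 and PKM were called in opposite directions (background 7.58%). A difference in change between the sets was called for 17 members, 11 with the more positive change in replicates 3-4, against 41.3% of all genes (18.4% in that direction, 22.9% in the other). Between the knockout pairs themselves, 20 members differed, 12 higher and 8 lower in knockouts 3-4, against 59.6% of all genes (28.5% higher, 31.1% lower). If the libraries of a pair are not independent cultures, the p-values of the 4-pair fit are too small.

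The members called in replicates 3-4 depended on which of controls 3 and 4 was used, and each lone control is assumed to vary like the other libraries. Without control 3, 22 members were called there, 13 lower and 9 higher (background 47.5%, 25.4% lower and 22.1% higher), with PFKFB4 at -0.97, BNIP3 at -0.66 and PGK1 at -0.24 among the falls. Without control 4 instead, 22 were called, 10 lower and 12 higher (background 46.8%, 23.2% lower and 23.6% higher), and PDK1, LDHA and BNIP3L were among the rises at 0.55, 0.40 and 0.35. Without control 3 those 3 were at -0.03, -0.09 and -0.17 and none was called (limma). PFKFB4 was at -0.10 without control 4, and BNIP3 and PGK1 were among the rises. Without control 3 the interaction was also called for PFKL, BNIP3, NDRG1 and MXI1 (limma adjusted p = 0.0142, 0.00845, 0.00148 and 0.0102), and no longer for SLC16A3 and KDM3A (0.0507 and 0.106). The falls of NDRG1, VEGFA, BHLHE40, DDIT4, MXI1, ARNT, SLC2A3 and ALDOC in replicates 3-4 were called with either control left out.

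**Figure D4:**
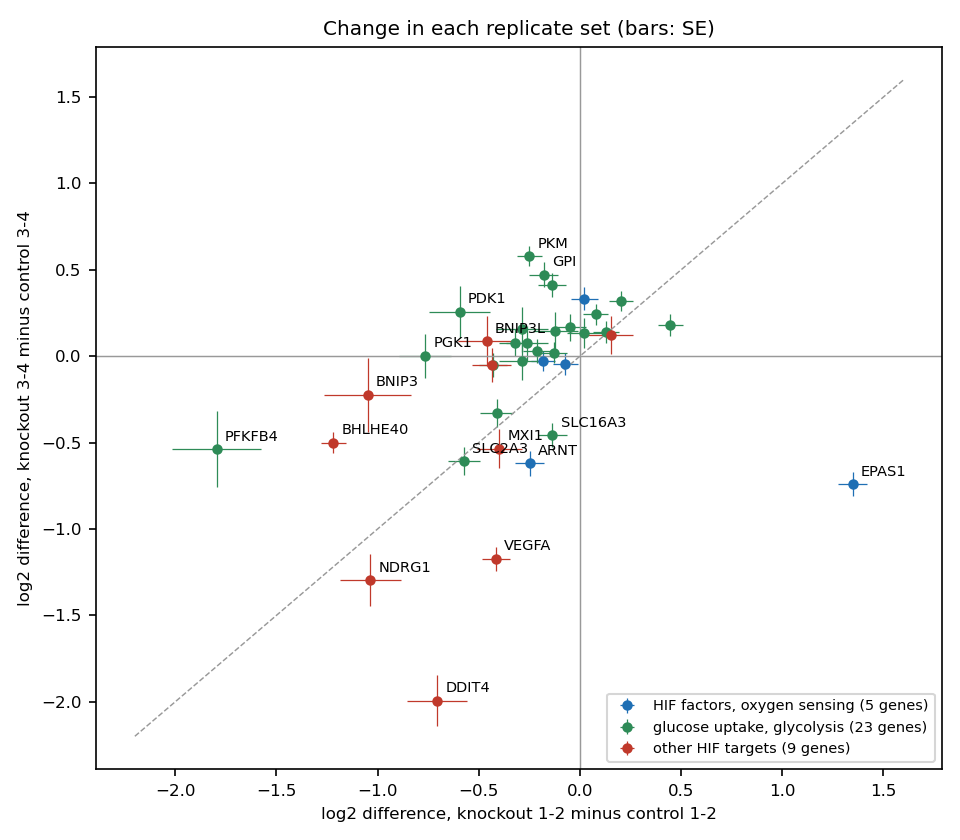
The log2 difference between knockout and control in replicates 1-2 (x axis) and in replicates 3-4 (y axis) for the 37 tested members, coloured by role, with SE bars and a dashed line of equal change. NDRG1, SLC2A3 and MXI1 lie near the line in the lower left, EPAS1 lies alone at 1.35 and -0.74, and PFKFB4, BNIP3 and PGK1 lie far to the left with smaller changes on the y axis.

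The start-site windows of the members were searched for the core letters of a HIF site. Each RefSeq window (GRCh38.p14) runs from 250 bases before to 50 bases after a gene's start, and 35 of the 40 members had one. VHL, SLC2A3, NDRG1, BNIP3L and VEGFA were not matched. ACGTG, searched on both strands, was in the first-listed window of 14 of the 35 members and of 21.6% of all genes. GCGTG was in 17 of 35 and in 36.3% of all genes. The members were listed as genes of the hypoxia response and of glycolysis, so these shares describe the list and not the changes. An ACGTG and its reverse complement overlap where the letters read CACGTG, which is also the E-box that other factors bind. Windows are shown for BHLHE40, ALDOC and DDIT4, which fell in both replicate sets, for PGK1, and for GAPDH, which rose. PGK1 was called lower in replicates 1-2 only, and the change differed between the sets for BHLHE40, DDIT4 and PGK1. The letters run 5′ to 3′ on the gene's strand, with ACGTG and its reverse complement in capitals. The window of BHLHE40 is chr3:4979187-4979486 (plus strand), that of ALDOC chr17:28576846-28577145 (minus strand), that of PGK1 chrX:78103998-78104297 (plus strand), that of DDIT4 chr10:72273674-72273973 (plus strand) and that of GAPDH chr12:6535014-6535313 (plus strand).
BHLHE40: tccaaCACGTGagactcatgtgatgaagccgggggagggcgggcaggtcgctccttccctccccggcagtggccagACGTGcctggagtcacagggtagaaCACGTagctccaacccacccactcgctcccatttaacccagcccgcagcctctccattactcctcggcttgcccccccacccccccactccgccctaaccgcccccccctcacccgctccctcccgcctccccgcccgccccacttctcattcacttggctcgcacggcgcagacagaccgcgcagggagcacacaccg
ALDOC: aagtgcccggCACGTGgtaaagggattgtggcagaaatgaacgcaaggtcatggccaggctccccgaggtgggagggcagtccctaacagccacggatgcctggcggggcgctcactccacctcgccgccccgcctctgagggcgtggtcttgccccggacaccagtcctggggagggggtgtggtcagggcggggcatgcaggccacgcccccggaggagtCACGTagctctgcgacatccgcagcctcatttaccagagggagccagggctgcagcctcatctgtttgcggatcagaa
PGK1: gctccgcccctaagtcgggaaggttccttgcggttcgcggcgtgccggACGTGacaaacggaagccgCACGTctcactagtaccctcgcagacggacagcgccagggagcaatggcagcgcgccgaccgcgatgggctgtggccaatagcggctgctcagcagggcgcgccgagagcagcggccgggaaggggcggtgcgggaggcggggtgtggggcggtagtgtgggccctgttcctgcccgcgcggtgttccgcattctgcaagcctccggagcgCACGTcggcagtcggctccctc
DDIT4: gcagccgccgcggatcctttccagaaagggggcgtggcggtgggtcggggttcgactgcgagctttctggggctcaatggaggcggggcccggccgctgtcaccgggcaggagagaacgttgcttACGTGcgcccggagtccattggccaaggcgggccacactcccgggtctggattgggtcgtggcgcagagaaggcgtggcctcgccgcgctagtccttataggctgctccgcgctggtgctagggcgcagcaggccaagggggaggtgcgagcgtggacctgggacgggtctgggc
GAPDH: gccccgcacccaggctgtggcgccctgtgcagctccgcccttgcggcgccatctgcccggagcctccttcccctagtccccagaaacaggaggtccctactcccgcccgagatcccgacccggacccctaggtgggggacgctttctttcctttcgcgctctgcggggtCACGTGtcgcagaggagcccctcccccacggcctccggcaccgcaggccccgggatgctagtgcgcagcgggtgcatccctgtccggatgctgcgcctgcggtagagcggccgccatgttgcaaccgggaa
The letters were present in members that fell, that rose and that differed between the sets. ACGTG was also in the windows of LDHA, HK2, EGLN1 and ENO2, which were called neither over all 8 libraries nor in either replicate set. LDHA had the most matches of any member, 5. PFKFB4 and LDHB held GCGTG but not ACGTG, and MXI1 and PDK1 held neither in the window searched. A match describes the sequence and does not show that HIF binds there.

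Other genes of these pathways were then examined. Of 34 tested further HIF targets, 4 were called over all 8 libraries, all lower, against 13.1% of all genes. They were RAB20 (-0.55), a small GTPase, PGM1 (-0.43), the phosphoglucomutase of glycogen metabolism, ZNF395 (-0.34) and STC1 (-0.25), the hormone stanniocalcin. In replicates 1-2, 19 of the 34 fell and 2 rose, against 21.3% lower and 26.6% higher over all genes. In replicates 3-4, 7 fell and 4 rose, against 22.8% lower and 21.3% higher. Control 3 was the lowest control for 29 of these 34, against 40% of all genes. Without control 3, 10 of the 34 were called over the remaining libraries, all lower, against 15.0% of all genes. The median difference of the 34 in replicates 3-4 was -0.19 without control 3 and 0.09 without control 4. The medians over all genes were -0.0138 and 0.0098. Of 12 further oxygen-sensing genes 0 were called over all 8 libraries by limma, and 0 had an unadjusted p under 0.05. Within the sets 7 of the 12 were called in replicates 1-2 and 3 in replicates 3-4, against 47.9% and 44.1% of all genes. The 3 were called in both sets with opposite signs, a pattern of 7.58% of all genes. ARNT2, a relative of ARNT, was at -0.32 and 0.75, ELOC, of the VHL ligase complex, at 0.32 and -0.53, and CITED2, which competes with HIF for a coactivator, at 0.71 and -0.38. These 3 are named because the count is small, after their values were seen.

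In the list of further glycolysis and pyruvate genes 5 of 20 were called, 3 higher and 2 lower, against 13.1% of all genes (7.02% higher, 6.10% lower). In replicates 1-2, 13 of the 20 rose and 5 fell, and in replicates 3-4, 6 rose and 6 fell, against 47.9% and 44.1% of all genes called. MPC1, of the mitochondrial pyruvate carrier, rose by 0.57 ± 0.16 (SE; limma adjusted p = 0.0496) and was not called without control 3. PDHA1 and DLAT, subunits of pyruvate dehydrogenase, rose by 0.41 and 0.36 (limma adjusted p = 0.00589 and 0.0195). PC, the pyruvate carboxylase, fell by 0.65 (limma adjusted p = 0.00170), and PGM1 is the other that fell. PDHA1 was at 3.46, 3.54, 3.45 and 3.55 in controls and 3.99, 3.89, 3.88 and 3.88 in knockouts, so the groups did not overlap.

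Of the 18 genes of the tricarboxylic acid cycle 6 were called, all higher, against 13.1% of all genes called and 7.02% higher. IDH3A rose by 0.53, SDHD by 0.49, SUCLG1 by 0.47 and FH by 0.38 (limma adjusted p = 0.00562, 0.0142, 0.00626 and 0.0103). In replicates 1-2, 11 of the 18 rose and 1 fell, against 26.6% higher and 21.3% lower over all genes. In replicates 3-4, 9 rose and 2 fell, against 21.3% higher and 22.8% lower. Without control 3 the same 6 were called. The median difference of the list was 0.14, and control 3 was the lowest control for 5 of its 18 genes. Of 8 pentose phosphate genes 0 were called over all 8 libraries by limma (3 at an unadjusted p under 0.05).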

How the data were processed

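RNA of 8 cell-line libraries was sequenced after TRIzol extraction and a stranded total-RNA kit, per the labels' protocols. The table the authors deposited holds log2 values per gene symbol. Its columns share 1 distribution, which is the mark of quantile normalization, and base 2 was inferred from their range. The submitters' processing notes name bcl2fastq, Partek 7.0 and GRCh38, with no role; the aligner, the counting program and strand use are not given in the sources used here. Blanks were treated as missing. Depth is unknown, so no counting error is attached.

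Genes measured in every library with a mean of 1 or more were fitted with limma 3.58.1 (R 4.3.3), with no covariate, and in a second fit with a mean for each of 4 library pairs. P-values were adjusted over all 9016 genes (Benjamini-Hochberg), and called means an adjusted p under 0.05. Single genes outside the fit had exact permutation tests.

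Members and lists were chosen with earlier results of these data known. Members given in full are HIF1A, EPAS1, GAPDH, those called over all 8 libraries and the 8 largest called interactions; from each further list up to 4 called genes were taken by size, and others given with values were chosen after these were seen. The labels number the replicates 1 to 4 in both groups. Deviations from the group means correlated at 0.20 to 0.29 across genes between same-numbered libraries, at 0.11 to 0.31 between the other libraries of the same set, and at -0.30 to -0.15 across the sets. They thus separate the sets and not the single numbers. All 4 same-number values exceed 0.1, but so do those of the other libraries of the same set, so a block on the number has no special ground. A fit with that block is given where it changes a call, beside a fit with a term for the sets. The labels do not say that replicates came from separate cultures, so p-values measure only the spread between these libraries, which may be technical. Alternatives were other filters, scalings, a pseudocount of 1, a variance trend, averaged pairs and leaving out each library.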

Additional observations from a re-analysis of the deposited data

Results flagged for a closer look

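In a group of 4 libraries, a value was singled out where its gap to the nearest other value, as a share of the group's range, passed Dixon's critical value. This was examined in 79 groups of 4 and found in 5, where chance alone gives about 1 in 20. Control 3 was the library in 3 of the 5. GAPDH was at 11.12 in control 3 and 11.04 to 11.05 in the other controls, a high value on a small range. MXI1 was at 3.17 in control 3 against 3.54 to 3.58 in the others, and ADM at 4.41 against 4.64 to 4.67. ADM was also high in knockout 1, at 4.98 against 4.63 to 4.65 in the other knockouts. LDHA was at 7.81 in knockout 4 and 7.73 to 7.74 in the other knockouts. The close knockout pairs limit this rule, since a value shared by a pair cannot be singled out.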

How the results depend on the processing

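Other filters on low values, other scalings, a pseudocount of 1 and a variance trend with robust fitting were tried. So were the replicate block (8 calls) and a term for the replicate sets. Across these the share of all genes called ran from 8.30% with no filter to 25.2% with the term for the sets. With no filter, 5 of the 9 members stayed called and ANKRD37 was added (limma adjusted p = 0.0412). The members called over all 8 libraries, 9 in the main fit, numbered 6 and 12 at those ends and lay between them elsewhere. They numbered 1 at an adjusted p under 0.01 (3.02% of all genes called) and 0 by limma with the knockout pairs averaged (1.20%) or with pairs averaged in both groups (0 genes of any kind), with 11 and 6 at an unadjusted p under 0.05. Leaving out 1 library gave 1 to 13 (4.34% to 15.0% of all genes). In replicates 1-2 the 22 calls became 14 to 26 when 1 library was left out (27.8% to 57.3% of all genes), with the lowest count without control 1 or knockout 1. In replicates 3-4 the 17 became 15 to 22 (31.7% to 47.5%). The 17 interactions became 11 with no filter (27.4%), 8 at an adjusted p under 0.01 (23.3%) and 10 to 24 without 1 library (26.8% to 48.4%), with the lowest count without knockout 1. The 20 members that differed between knockout pairs (background 59.6%) became 14 to 23 without 1 library (44.6% to 66.7%). For controls 3-4 against 1-2, the 0 calls became 1 with a mean of at least 3 (2.52%), 2 with a pseudocount of 1 (4.21%), 5 with the variance trend (5.72%) and 0 to 23 without 1 library (0% to 31.9%), 23 only without control 4. Of single members, direction turned only for differences not called. Leaving out 1 library, LDHA ran from -0.2132 to 0.0055, HK2 from -0.0736 to 0.064, EPAS1 from -0.0122 to 0.6123 and PFKL from -0.0244 to 0.1448. The cause of these shifts was not tested. The replicate block changed no call other than those given above. The alternatives for single genes in the 4-pair fit, and the further lists without control 3 or 4, were chosen after seeing the data, and none of the 76 called contrasts turned direction. Depth limits on low genes such as CA9 cannot be stated without counts.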
